A study of Mus musculus with 35 samples.

Results

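In all, 10 genes were followed cell by cell as genes around metabolites of these macrophages, namely glycerophosphoinositol, phosphorylcholine and taurine. Single-cell simultaneous metabolome and transcriptome profiling (scMeT-seq) had traced these metabolites. The genes were Gde1, Gdpd1 and Gdpd3 (glycerophosphodiester phosphodiesterase family), and Chka, Chkb, Pcyt1a and Slc44a1 (choline uptake and phosphocholine use). Slc6a6, Csad and Cdo1 (taurine uptake and synthesis) were the others. Of the first family, Gdpd1 and Gdpd3 act mainly on lysophospholipids. The members were taken by symbol from each of the 3 deposited count tables, which list all 10 members among 32285 genes in the lactate and technique tables and 35624 in the AZD3965 table. The 35 cells were labelled primary peritoneal macrophages of male C57BL/6 mice aged 6 months, and 5 of them were lysed whole while the other 30 first gave cytoplasm to the metabolome through a capillary.

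The lactate experiment held 8 control cells (CTL) and 8 cells given 10 mM lactate for 72 h (Lactic), all by scMeT-seq. The AZD3965 experiment held 5 cells labelled lactate and 5 labelled lactate+AZD, the latter given 300 nM AZD3965, an inhibitor of the lactate transporter MCT1, with lactate, so both of its arms carried lactate. The technique comparison held 4 lactate cells by scMeT-seq, 3 lactate cells lysed whole and 2 control cells lysed whole. In both of these experiments lactate was at 10 mM, and lactate and AZD3965 were given for 72 h. Cells were isolated by peritoneal lavage and adherence, and no sort by markers is described. No label ties a cell to an animal or a culture, so each group counted as 1 sample. Groups were therefore not tested against each other, and none of the differences below has a replicate check. Each library was made by SMART-seq2 with 20 PCR cycles and no molecular identifiers, and intervals given below therefore cover counting error only.

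Total gene counts ran from 269393 to 459859 per cell in the lactate experiment, from 494520 to 851417 in the technique comparison and from 58444 to 175450 in the AZD3965 experiment. Markers of macrophages were detected in each of the 35 cells, with 12 to 18 of 18 markers seen, and mast cell markers were at 0 in all of them. Control cell CTL32 went against its label, since 14 fibroblast markers added up to 43645 CPM (counts per 1000000 gene counts of the cell) there against 1354 CPM for the macrophage markers, and its Adgre1 and Csf1r, which define macrophages, were at 0. Fibroblast markers also reached 25.8% of the macrophage markers in control cell CTL30, 18.3% in lactate cell Lactic29 and 59.8% in lactate+AZD cell W14, and the next highest was lactate cell W5 with 6.43%. Summed fibroblast markers ran from 0 to 43645 CPM in control and 0 to 7571 CPM in lactate cells of the lactate experiment, from 0 to 6767 CPM in lactate and 0 to 17170 CPM in lactate+AZD cells, and reached at most 243 CPM in the technique comparison. Summed markers of other blood cells peaked at 627 CPM for neutrophils (CTL35), 387 for dendritic cells (W10) and 263 for B cells (CTL30). Those of eosinophils peaked at 50.3 CPM (T11) and those of T cells at 22.9 CPM (Lactic34). In lactate+AZD cell W10, B cell markers were at 247 CPM. Ratios of the members without CTL30, CTL32, Lactic29 and W14 are given beside those over all cells. Their part in the differences between groups was not tested.

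Choline enters cells through carriers such as Slc44a1, is phosphorylated by the choline kinases Chka and Chkb and is joined to CTP by Pcyt1a, the rate-limiting step of the CDP-choline route to phosphatidylcholine. Deacylation of phospholipids releases glycerophosphodiesters such as glycerophosphoinositol, which Gde1 splits, whereas its relatives Gdpd1 and Gdpd3 act mainly on lysophospholipids. Taurine is made from cysteine by Cdo1, which oxidises cysteine, and Csad, which decarboxylates the product, or is carried into the cell by Slc6a6. In macrophages phosphatidylcholine synthesis is known for supporting membrane growth and secretion, and taurine is an abundant osmolyte and scavenger of hypochlorous acid in phagocytes.

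Gde1, Gdpd1 and Gdpd3 were seen in 33, 25 and 2 of the cells, and Chka and Chkb in 19 and 22. The 150 bases upstream of their starts are shown so that these windows can be set beside the counts. The bases come from the RefSeq promoter table (GRCm38.p6), which held 8 of the 10 members that were used here, and are written 5′ to 3′ on the gene's own strand, ending just before the outermost start given by RefSeq or GENCODE M21. Capitals mark each CG pair. The windows lie at chr7:118705779-118705928, minus strand, for Gde1, at chr11:87074138-87074287, minus strand, for Gdpd1, at chr7:126766184-126766333, plus strand, for Gdpd3, at chr19:3851623-3851772, plus strand, for Chka and at chr15:89429928-89430077, minus strand, for Chkb.
Gde1: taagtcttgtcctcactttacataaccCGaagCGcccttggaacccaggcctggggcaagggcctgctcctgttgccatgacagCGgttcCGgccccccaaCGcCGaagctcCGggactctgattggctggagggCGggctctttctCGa
Gdpd1: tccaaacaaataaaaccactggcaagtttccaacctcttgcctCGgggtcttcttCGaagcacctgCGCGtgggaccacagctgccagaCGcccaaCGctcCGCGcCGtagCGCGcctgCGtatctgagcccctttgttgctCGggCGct
Gdpd3: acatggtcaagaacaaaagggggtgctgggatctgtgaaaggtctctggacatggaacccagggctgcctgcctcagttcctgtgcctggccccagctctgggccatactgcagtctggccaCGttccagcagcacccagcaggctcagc
Chka: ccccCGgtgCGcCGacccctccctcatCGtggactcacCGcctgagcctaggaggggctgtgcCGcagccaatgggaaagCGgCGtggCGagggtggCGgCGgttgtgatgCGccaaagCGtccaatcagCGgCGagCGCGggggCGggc
Chkb: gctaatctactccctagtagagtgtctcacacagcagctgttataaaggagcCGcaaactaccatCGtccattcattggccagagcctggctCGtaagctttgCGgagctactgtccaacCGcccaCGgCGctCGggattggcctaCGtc
These windows held 9 CG pairs for Gde1, 14 for Gdpd1, 1 for Gdpd3, 18 for Chka and 9 for Chkb. Over all 32851 RefSeq windows of 150 bases, 31.7% held at least 9 pairs, 17.9% at least 14, 85.7% at least 1 and 9.20% at least 18. Of the other members, Pcyt1a had 15 pairs, Slc44a1 18 and Csad 4. The median was 12 pairs for the 1792 genes with a count in 30 or more of the cells, 6 for the 2614 genes seen in 1 to 5 cells and 1 for the 4612 genes seen in none. Chka, with more CG pairs in its window than Chkb, was seen in fewer cells.

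Detection separated the members first. Slc6a6 had a count in all 35 cells, Gde1 in 33, Slc44a1 in 29, Pcyt1a in 28, Gdpd1 in 25, Csad in 23, Chkb in 22, Chka in 19, Cdo1 in 6 and Gdpd3 in 2. A zero in a cell is a limit and not an absence, since it allows up to 3 counts, which is 51.3 CPM in the shallowest cell, F8. At a detection limit of 5 counts, 6 of the members had it in 18 or more cells, against 8 at a limit of 1 count, since Chka then counted in 12 cells and Csad in 14. The number of members seen per cell ran from 3 to 8 (median 6.5) in control cells and from 6 to 8 (median 7) in lactate cells of the lactate experiment. In the AZD3965 experiment it ran from 5 to 9 (median 6) in lactate cells and from 2 to 5 (median 4) in lactate+AZD cells, so the groups met only at 5 members. All genes seen per cell ran from 5236 to 6285 (median 5977) and from 4812 to 7405 (median 5020). The AZD3965 table also lists Gm44502, a read-through gene that shares exons with Chkb. It had 4, 11 and 5 counts in lactate+AZD cells T10, W14 and F8, where Chkb was at 0. With these read as Chkb, the groups would overlap further. With every cell of that table thinned to the 58444 counts of F8, the expected medians were 5.68 and 4.00.

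**Figure D1:**
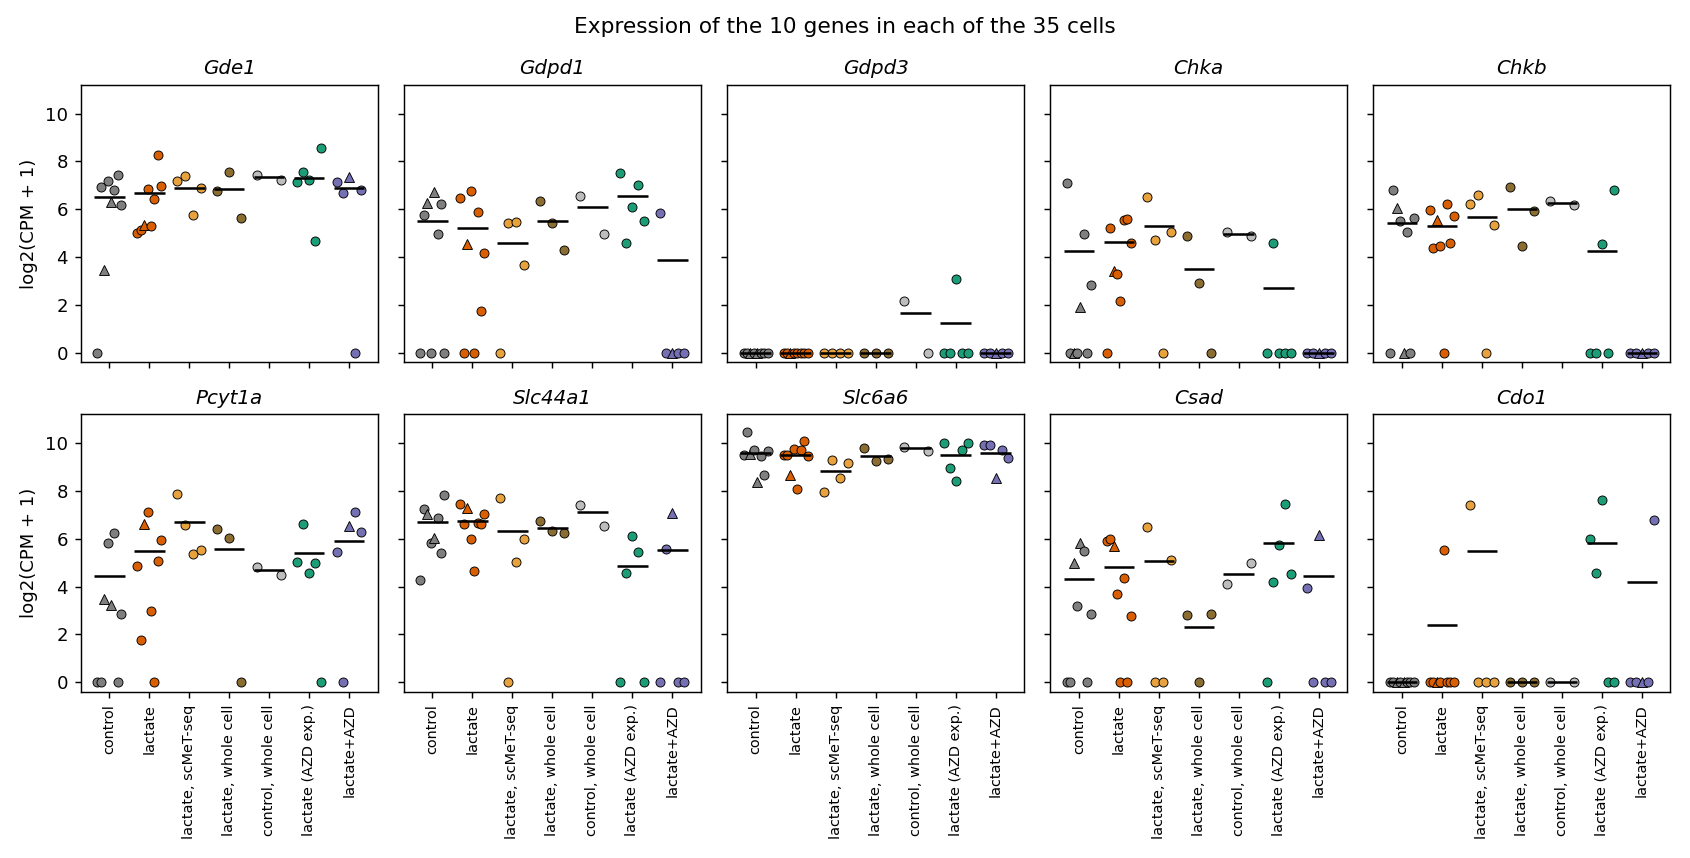
Log2(CPM + 1) of each member (panels) in each of the 35 cells (points) of the 7 groups (horizontal axis), with the summed level of the group as a bar. Triangles are the 4 cells whose fibroblast markers reached 10% of the macrophage markers. Slc6a6 is the only member above 0 in all 35 cells, and Gdpd3 stands at 0 in 33 of them.

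Levels of different genes were compared per kb of the longest coding transcript. Slc6a6 stood highest in most groups, with summed levels of 73.7 to 142 CPM per kb over the 7 groups. Gde1 followed with 57.8 to 102 CPM per kb. In the scMeT-seq cells of the technique comparison Gde1 was higher, at 74.9 against 73.7. Per kb of all exons Gde1 also led in lactate cells of the AZD3965 experiment, at 92.7 against 85.8. Slc6a6 was above Gde1 in 26 of 35 cells, so the order of these neighbours was not fixed. Chkb (0 to 44.8 CPM per kb), Slc44a1 (6.33 to 31.5) and Gdpd1 (5.89 to 39.8) formed a middle range with no stable order, since Chkb was above Slc44a1 in 12 cells and below it in 19, and Slc44a1 was above Gdpd1 in 18 and below it in 15. Csad (1.76 to 24.4 CPM per kb), Pcyt1a (4.40 to 21.6) and Chka (0 to 15.0) came next, and Csad was above Pcyt1a in 16 cells and below it in 15. Cdo1 (0 to 34.8 CPM per kb) and Gdpd3 (0 to 1.85) closed the order.

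**Figure D2:**
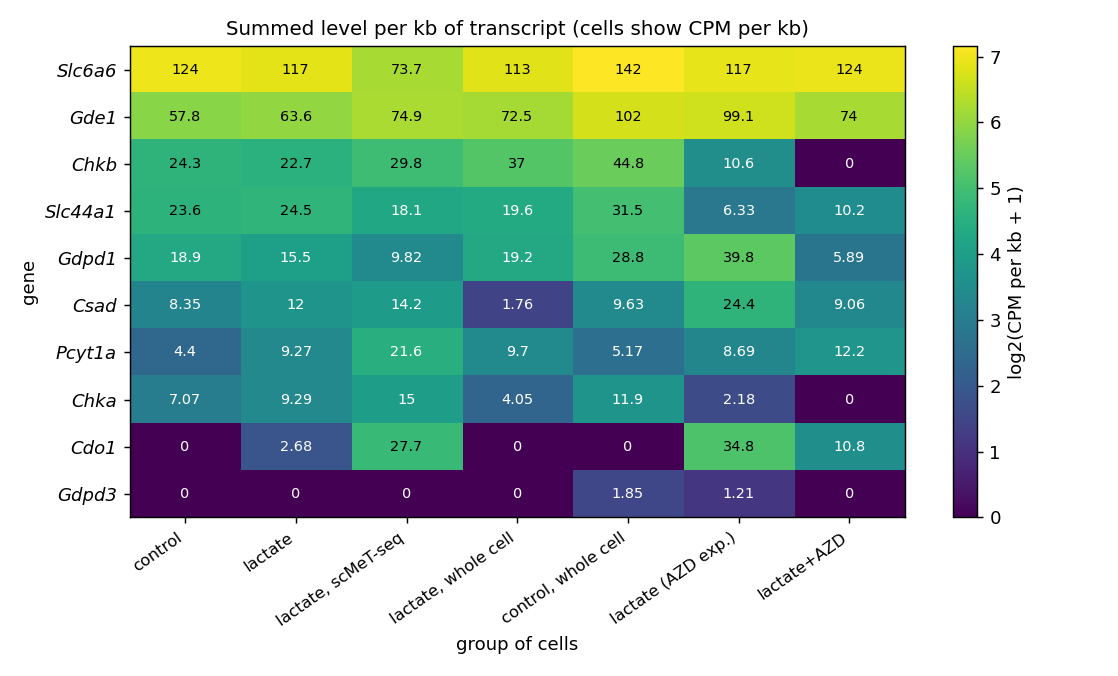
Summed level of each member (rows) in CPM per kb of its longest coding transcript in each group of cells (columns), with the colour on a log2(CPM per kb + 1) scale and the value printed in each field. Slc6a6 and Gde1 lie at 57.8 CPM per kb or more in every group, and Cdo1 ranges from 0 to 34.8.

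Within the phosphodiesterase family, Gdpd1 was never counted in a cell without Gde1. Both were seen in 25 cells, Gde1 alone in 8 and neither in 2, and per kb the summed level of Gde1 was 2.49 to 12.6 times that of Gdpd1. Gdpd3 had 3 counts in whole control cell CTL4 and 1 count in lactate cell W5, and was at 0 elsewhere. Over the control cells of the lactate experiment a sum of 0 allows up to 1.02 CPM, and over its lactate cells up to 0.987 CPM. Part of the Gdpd3 exons lies opposite Gm9967, and without strand information reads of both cannot be told apart.

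Of the choline kinases, Chkb had the higher level per kb in each of the 6 groups in which either was counted, by 1.99 times in the scMeT-seq cells of the technique comparison to 9.13 times in the whole lactate cells. Both were seen in 15 cells, Chka alone in 4, Chkb alone in 7 and neither in 9. These numbers and levels leave out Gm44502, which only the AZD3965 table lists. It had counts in T10, T11, W14 and F8, where Chkb was at 0, so Chkb is not read alike across the tables. In the lactate experiment Chka ranged from 0 to 137 CPM in control cells (median 1.38) and from 0 to 46.5 CPM in lactate cells (median 16.4), with 4 of 8 control and 7 of 8 lactate cells above 0. Chkb ranged from 0 to 111 CPM (median 38.01) in control and from 0 to 73.9 CPM (median 34.9) in lactate cells. The groups overlapped for both kinases. Their summed log2 ratios, lactate over control, were 0.39 for Chka (95% exact conditional binomial interval -0.14 to 0.93) and -0.10 for Chkb (-0.47 to 0.28), and 0.12 and -0.22 without the cells carrying fibroblast markers. Without control cell CTL27, which held 37 of the 53 control counts of Chka, the ratio of Chka was 1.98.

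Lactate was compared with control over the 11506 genes with 10 or more counts in both groups together, of which 15.1% were 2-fold or more higher with lactate and 22% lower, and 5.67% and 8.15% remained so without any single cell. Of the 10 members, 9 had 10 or more counts, 2 were 2-fold or more higher (Pcyt1a and Cdo1), 0 were lower and 0 stayed past 2-fold without every single cell. Their median log2 ratio was 0.14, beside -0.09 for all genes. Pcyt1a ranged from 0 to 75.6 CPM in control cells (median 7.22) and from 0 to 139 CPM in lactate cells (median 30.3). Counts were seen in 5 control and 7 lactate cells, and the ranges overlapped. The summed level was 44.4 CPM with lactate and 21.1 CPM without, a log2 ratio of 1.08 (0.63 to 1.53).

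That ratio of Pcyt1a rested on few cells. Lactic29 and Lactic30 held 40 and 47 of the 135 lactate counts, and CTL31 and CTL33 held 20 and 33 of the 62 control counts. Leaving out Lactic30, Lactic29, CTL27, CTL28, CTL30, CTL32, CTL34 or CTL35 in turn brought it under 2-fold (0.63 to 0.96), and without CTL33 it was 1.94. Without CTL30, CTL32 and Lactic29, the cells with fibroblast markers, it was 0.52 (0.03 to 1.03).

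The choline carrier Slc44a1 stayed within 2-fold between the same cells. It ranged from 18.6 to 224 CPM in control cells (median 90.3) and from 24.2 to 176 CPM in lactate cells (median 98.9). Every cell of both groups was above 0. Its log2 ratio was 0.06 (-0.17 to 0.29), with a range of -0.07 to 0.29 when single cells were left out, and -0.07 without the cells carrying fibroblast markers.

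The phosphodiesterase genes also stayed within 2-fold between lactate and control. Gde1 ranged from 0 to 173 CPM in control cells (median 93.7) and from 30.8 to 309 CPM in lactate cells (median 62.0), where Lactic33 was highest. The log2 ratio of the sums was 0.14 (-0.10 to 0.38) and turned to -0.46 without Lactic33, the direction of the medians, and to -0.05 without CTL30. It was 0.02 without the cells carrying fibroblast markers. Gdpd1 ranged from 0 to 105 CPM in control and from 0 to 107 CPM in lactate cells, with a log2 ratio of -0.29 (-0.67 to 0.09) that was 0.44 without the cells carrying fibroblast markers, since CTL30 and CTL32 held 30 and 38 of the 130 control counts.

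RNA of the taurine carrier Slc6a6 differed little between lactate and control, and uptake itself was not measured. Slc6a6 ranged from 327 to 1425 CPM in control cells (median 733) and from 270 to 1087 CPM in lactate cells (median 724). The groups overlapped almost throughout, and only control cell CTL28 lay above 1087 CPM. Its log2 ratio was -0.09 (-0.18 to -0.01), and -0.22 to 0.15 without single cells, and -0.14 without the cells carrying fibroblast markers. Csad ranged from 0 to 55.4 CPM in control (median 7.19) and from 0 to 63.5 CPM in lactate cells (median 15.7), with a log2 ratio of 0.52 (0.01 to 1.04). Without CTL30, CTL32 and Lactic29 the ratio of Csad was 1.10 (0.40 to 1.85), since these control cells held 12 and 20 of its 56 control counts. Csad shares 278 exon bases with Zfp740 on the opposite strand, and reads there cannot be told apart in any of the comparisons. Zfp740 had 138 counts in the lactate table, 69 in the technique table and 21 in the AZD3965 table. Cdo1 had 13 counts, 45.0 CPM, in lactate cell Lactic31 and 0 in the other 15 cells, so the summed level was at least 4.19-fold higher with lactate through 1 cell, in which fibroblast markers were at 381 CPM.

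**Figure D3:**
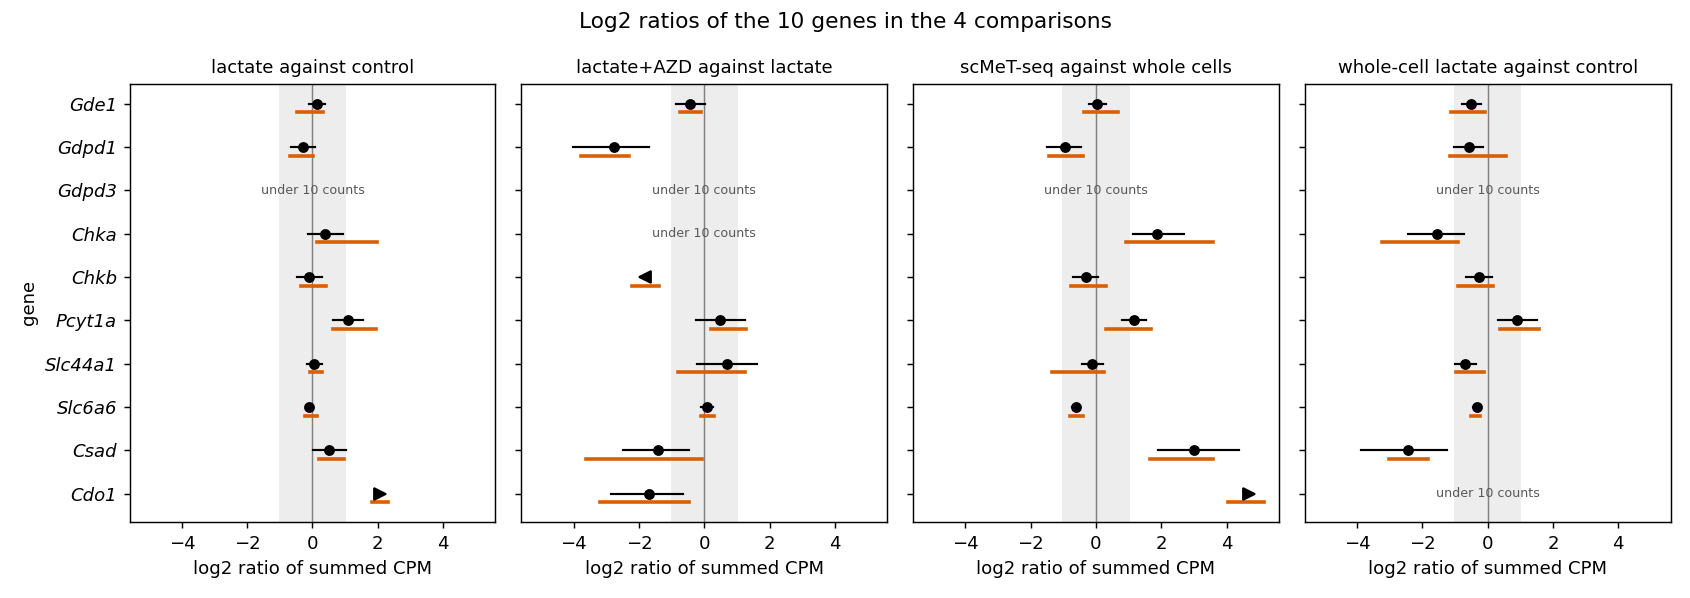
Log2 ratio of summed CPM (horizontal axis) of each member (rows) in the 4 comparisons, as points with 95% exact conditional binomial intervals, and as triangles where a group at 0 was set to 3 counts and the value is a bound. Orange bars are the range of ratios with each cell left out in turn, where a ratio could be formed, and the grey band is under 2-fold. Gdpd1 with AZD3965 and Csad in both comparisons of the technique table lie outside the band over their whole orange bars. The bars of Cdo1 with lactate, Cdo1 between techniques and Chkb with AZD3965 also lie outside it. They lack the value without Lactic31, Lactic13 and F18, respectively, since no ratio could be formed without that cell.

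With AZD3965 the members that differed were lower. Over the 8764 genes with 10 or more counts, 24.9% were 2-fold or more higher in lactate+AZD cells and 15.6% lower, and 9.73% and 5.71% without any single cell. All genes together had a median log2 ratio of 0.17, and TMM scaling moved every ratio by -0.16. Of the 8 members with 10 or more counts, 4 were 2-fold or more lower (Gdpd1, Csad, Cdo1 and Chkb) and 0 higher, with a median log2 ratio of -0.92. In this table values of 1 count were rarer than values of 2 counts, 1914 against 6215, whereas there were 9283 against 5614 in the lactate table and 7850 against 3041 in that of the techniques. The reason is not known here, so a count may not stand for 1 read there and the counting intervals and limits of 3 counts may be too narrow. Gdpd1 alone stayed 2-fold or more lower without any single cell, and none of the members had cell ranges that did not overlap, as 28 genes higher and 5 lower did.

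Gdpd1 was counted in each of the 5 lactate cells, at 182 CPM in T11, 22.8 in T13, 44.2 in F18, 67.4 in W5 and 130 in W20. Of the 5 lactate+AZD cells only T10 had counts of it, at 56.7 CPM, while F8, F9, W10 and W14 were at 0. A zero there allows up to 51.3 CPM in F8, 33.2 in F9, 20.0 in W10 and 21.2 in W14, so that 3 of the 5 lactate levels lie above the limit of every zero. The summed level was 13.8 CPM against 93.0 CPM, a log2 ratio of -2.76 (-4.03 to -1.70). It ran from -3.77 without T10 to -2.30 without T11, and was -2.35 without W14. Cell names begin with T, W or F in both arms, with no meaning given, and the 3 F cells had 58444 to 90523 total counts against 133444 to 175450 in the others. Between the T cells, Gdpd1 stood at 56.7 CPM against 98.6 CPM, a log2 ratio of -0.80 and so under 2-fold, and between the W cells it had 0 counts against 30. The F cells held 0 counts against 4, too few for a ratio.

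Its relative Gde1 differed less. Gde1 stood at 138 CPM in T11, 188 in T13, 376 in F18, 150 in W5 and 24.7 in W20, and with AZD3965 at 142 in T10, 0 in F8, 111 in F9, 100 in W10 and 163 in W14. The groups overlapped, and the log2 ratio was -0.42 (-0.88 to 0.02), and -0.62 without W14. It was -0.21 between T cells, 0.68 between W cells and -2.48 between F cells. Per kb, Gde1 was 2.49 times Gdpd1 in lactate cells and 12.6 times in lactate+AZD cells.

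Csad stood at 0 CPM in T11, 17.1 in T13, 22.1 in F18, 52.5 in W5 and 173 in W20, and with AZD3965 at 14.2 in T10, 70.7 in W14 and 0 in the other 3 cells. Most of its counts thus came from W20 in one arm and W14 in the other. The log2 ratio was -1.43 (-2.49 to -0.47), but it was -0.06 without W20, -0.997 without W10, just under 2-fold, and -3.61 without W14, the lactate+AZD cell with fibroblast markers. Between W cells it was -1.79, and T and F cells held too few counts for a ratio.

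Cdo1, the first enzyme from cysteine to taurine, was counted in 3 lactate cells, at 62.8 CPM in T11, 22.8 in T13 and 195 in W5, and in 1 lactate+AZD cell, F9, at 111 CPM. Its log2 ratio of -1.69 (-2.85 to -0.66) was -0.47 without W5, -3.18 without F9 and -1.29 without W14. Its direction differed by cell name, with 0 counts against 14 in T cells, 0 against 26 in W cells and 10 against 0 in F cells. Fibroblast markers were at 6767 CPM in W5, 1175 in T11, 22.8 in T13 and 0 in F9. Csad and Cdo1 were counted together in 3 of the 35 cells, Csad alone in 20 and Cdo1 alone in 3.

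Chkb had 10 counts in F18 and 3 in W5 and was at 0 in all 5 lactate+AZD cells, at least 3.49-fold lower with the sum of 0 set to 3 counts. The bound on the log2 scale went from -1.81 to -1.40 without W14, and no ratio could be formed without F18. This reading depended on how reads were assigned. The AZD3965 table lists Gm44502, a read-through gene that shares 1552 exon bases with Chkb, with 10 counts in the lactate cells and 20 in the lactate+AZD cells. With both added, the sums were 23 and 20 counts, and the log2 ratio was 0.11 (-0.83 to 1.04). Chka had 4 counts in T13 and 0 in the other 9 cells, and Gdpd3 had 1 count, so no fold was formed for either.

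Pcyt1a, Slc44a1 and Slc6a6 stayed within 2-fold with AZD3965. Pcyt1a stood at 31.4 CPM in T11, 96.9 in T13, 0 in F18, 22.5 in W5 and 30.8 in W20, and with AZD3965 at 42.5 in T10, 137 in F8, 77.5 in F9, 0 in W10 and 91.9 in W14. The log2 ratio was 0.49 (-0.26 to 1.25), 1.29 without T13 and 0.20 without W14, and it was -0.63 between T cells and 0.72 between W cells, with 15 counts against 0 in F cells. Slc44a1 had counts in T13, W5 and W20 at 22.8, 67.4 and 43.2 CPM, and with AZD3965 in W10 and W14 at 46.7 and 134 CPM. Its log2 ratio was 0.69 (-0.21 to 1.61) and turned to -0.80 without W14.

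Slc6a6 was counted in all 10 cells of the AZD3965 experiment. It stood at 1030 CPM in T11, 496 in T13, 1016 in F18, 337 in W5 and 833 in W20, and with AZD3965 at 970 in T10, 838 in F8, 675 in F9, 975 in W10 and 368 in W14. The lowest cell of each arm was the one with the most fibroblast markers, as was CTL32 among control cells of the lactate experiment. This did not hold in its lactate cells or in the technique comparison. There the lowest cells included Lactic31 (270 CPM) and Lactic13 (249 CPM), with fibroblast markers at 381 and 1.57 CPM. A link with these markers was not tested. With AZD3965 the log2 ratio of Slc6a6 was 0.08 (-0.11 to 0.26), and 0.30 without W14. It was 0.37 between T cells, 0.16 between W cells and -0.46 between F cells.

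Drawing cytoplasm before lysis was compared with whole-cell lysis in lactate cells. Of 9723 genes with 10 or more counts, 21.7% were 2-fold or more higher in scMeT-seq cells and 20.6% lower, and 6.9% and 7.25% without any single cell. Of the 9 members with 10 or more counts, 4 were higher (Csad, Cdo1, Chka and Pcyt1a) and 0 lower, 1 of them, Csad, without any single cell. The median log2 ratio of the members was 0.05, beside 0.02 for all genes. Cells overlapped between the techniques for every member.

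The higher members all peaked in 1 scMeT-seq cell, Lactic13. Csad stood at 87.9 CPM in Lactic13, 33.9 in Lactic17 and 0 in Lactic14 and Lactic16, against 6.07, 0 and 6.29 CPM in whole cells Lactic5, Lactic6 and Lactic7. The log2 ratio was 3.01 (1.90 to 4.37), 1.67 without Lactic13 and 2.39 without Lactic6. Chka stood at 91.0, 25.0, 0 and 32.4 CPM in Lactic13, Lactic14, Lactic16 and Lactic17 and at 28.3, 6.53 and 0 in Lactic5, Lactic6 and Lactic7. Its log2 ratio of 1.88 (1.15 to 2.70) was 0.91 without Lactic13, 1.23 without Lactic7 and 3.57 without Lactic5.

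Pcyt1a followed the same cells, at 232, 94.3, 39.7 and 45.7 CPM in the scMeT-seq cells and 82.9, 65.3 and 0 CPM in whole cells. Its log2 ratio of 1.15 (0.79 to 1.53) was 0.31 without Lactic13 and 0.50 without Lactic7. Cdo1 had 108 counts, 169 CPM, in Lactic13 and 0 in the other 6 cells, at least 25.7-fold higher through that cell alone. Fibroblast markers were at 1.57 CPM in Lactic13 and at 67.8 CPM or less in all 4 scMeT-seq cells, and the macrophage markers of Lactic13 added up to 66817 CPM.

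The remaining members stayed within 2-fold between techniques. Slc6a6 stood at 249, 635, 375 and 584 CPM in the scMeT-seq cells and at 894, 609 and 637 CPM in whole cells, with a log2 ratio of -0.62 (-0.74 to -0.50) and a range of -0.78 to -0.41 without single cells. Gdpd1 had a log2 ratio of -0.96 (-1.49 to -0.45) that passed 2-fold without Lactic6, Lactic7, Lactic14 or Lactic16 (to -1.45) and was -0.41 without Lactic5. Gde1 had a log2 ratio of 0.05, which ran from -0.37 without Lactic7 to 0.67 without Lactic6. Slc44a1 had -0.11, and -1.35 without Lactic13. Chkb had -0.31, which ran from -0.76 without Lactic6 to 0.31 without Lactic5.

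Lactate was also compared with control in whole cells, 3 against 2. Of 9732 genes with 10 or more counts, 15.2% were 2-fold or more higher with lactate and 27.6% lower, and 4.51% and 10.1% without any single cell. All genes together had a median log2 ratio of -0.20, and TMM scaling moved every ratio by 0.18. Of the 8 members with 10 or more counts, 2 were lower (Csad and Chka), 0 higher and 1, Csad, lower without any single cell. Their median was -0.54.

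Csad stood at 16.4 and 30.3 CPM in control cells CTL4 and CTL8 and at 6.07, 0 and 6.29 CPM in Lactic5, Lactic6 and Lactic7. Its log2 ratio was -2.45 (-3.88 to -1.24), and -1.83 without Lactic6. Chka stood at 31.7 and 28.5 CPM in the control cells and at 28.3, 6.53 and 0 CPM in lactate cells, a log2 ratio of -1.56 (-2.44 to -0.74) that was -3.25 without Lactic5 and -0.91 without Lactic7. All 3 lactate cells lay below both control cells for Csad and Chka, as for 1499 of the 9732 genes.

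The other members with 10 or more counts were within 2-fold over all whole cells, but several passed it without 1 cell. Pcyt1a stood at 27.01 and 21.4 CPM in CTL4 and CTL8 and at 82.9, 65.3 and 0 CPM in the lactate cells, a log2 ratio of 0.91 (0.32 to 1.52) that was 1.56 without Lactic7 and 1.12 without CTL4. Gde1 had a log2 ratio of -0.50, which was -1.13 without Lactic6 and -0.09 without Lactic7. Gdpd1 stood at 91.6 and 30.3 CPM in the control cells and at 80.9, 42.4 and 18.9 CPM in the lactate cells. Its log2 ratio of -0.59 turned to 0.56 without CTL4, and was -1.14 without Lactic5 and -1.03 without CTL8. Slc6a6 stood at 917 and 824 CPM against 894, 609 and 637 CPM, a log2 ratio of -0.33 (-0.45 to -0.22).

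The 2 comparisons of lactate with control thus gave Csad log2 ratios of 0.52 by scMeT-seq and -2.45 in whole cells, and Chka 0.39 and -1.56. Pcyt1a stood at 1.08 and 0.91, Gde1 at 0.14 and -0.50, Slc44a1 at 0.06 and -0.68 and Slc6a6 at -0.09 and -0.33. The difference between the comparisons was not tested. Whole lactate cells Lactic5, Lactic6 and Lactic7 enter both the comparison of techniques and that of treatments in whole cells, so the low Csad of these 3 cells enters both.

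A further 90 genes of the same pathways were read beside the members. With lactate, 65 had 10 or more counts, of which 8 were 2-fold or more higher and 7 lower, and 2 and 2 held without any single cell, with a median log2 ratio of 0.12. These counts stand beside 15.1% higher and 22% lower over all genes, and 5.67% and 8.15% without any single cell, with a median of -0.09. Of 17 genes that make or break glycerophosphodiesters 3 were higher and 0 lower, and of 12 genes of taurine synthesis and cysteine supply 1 was higher and 4 lower, 2 of the 4 without any single cell. The higher genes that held were Napepld, which releases N-acylethanolamines from phospholipids (33 counts against 0, in 3 lactate cells), and the phospholipase B-like gene Plbd1 (31.6 CPM against 8.84, log2 1.84). The lower genes that held were Fmo5 (0 counts against 90, and against 46 without the cells carrying fibroblast markers) and Cth, which makes cysteine from cystathionine (0 against 96). In whole cells Fmo5 went the other way, with 24 counts in lactate cells against 0 in control cells. All counts of Cth came from CTL30 and CTL32, with 29 and 67, and none were left without the cells carrying fibroblast markers.

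Slc7a11, the cystine carrier, had a summed level of 845 CPM in lactate cells and 376 CPM in control cells, a log2 ratio of 1.17 that was 0.98 to 1.70 without single cells and 0.90 without the cells carrying fibroblast markers. Its partner Slc3a2 stood at 983 CPM and 606 CPM, a log2 ratio of 0.70. In the choline uptake list, Slc44a2 had a log2 ratio of -1.46 that was -0.42 without CTL32, which held 363 of its 634 control counts. Pld3, the most counted phospholipase D gene, had a log2 ratio of 0.12.

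With AZD3965, 60 of the 89 listed pathway genes had 10 or more counts, 11 were higher and 11 lower, 8 and 4 of them without any single cell, and the median log2 ratio was -0.12. Over all genes 24.9% were higher and 15.6% lower, and 9.73% and 5.71% without any single cell. Of 7 genes of phosphatidylcholine and phosphatidylethanolamine synthesis 2 were higher and 1 lower, with a median log2 ratio of -0.12 beside 0.17 for all genes. Of 8 genes of choline oxidation and phosphocholine breakdown 3 were higher and 0 lower, but 1 of the 3 held without any single cell. Of 17 glycerophosphodiester genes 3 were higher and 4 lower. Enpp2, which makes lysophosphatidic acid, had 417 counts against 2, all 417 in W14. Impad1 was not listed under that symbol in this table. In the synthesis list Cept1, which completes phosphatidylcholine and phosphatidylethanolamine, stood at 175 CPM against 25.0 CPM (log2 2.81, and 1.57 without W10, which held 70 of 102 counts) and Pcyt2, the ethanolamine counterpart of Pcyt1a, at 65.4 against 20.8 CPM (log2 1.65). Among glycerophosphodiester genes Gpcpd1, which splits glycerophosphocholine, was higher (77.4 against 20.8 CPM, log2 1.90) and Pla2g4a, a phospholipase A2, lower (20.6 against 69.4 CPM, log2 -1.75). Smpd1, acid sphingomyelinase, was 4.01-fold higher (94.6 against 23.6 CPM), with log2 ratios of 1.21 without W14, which held 31 of 55 counts, and 3.69 without T13, and Lpcat4 was higher on 10 counts against 2 (log2 2.63).

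Inositol and osmolyte genes went both ways with AZD3965. The inositol carrier Slc5a3 had 2 counts against 30 (log2 -3.60) and the inositol phosphatase Impa1 29.2 against 94.4 CPM (log2 -1.69), while Cdipt, which makes phosphatidylinositol, stood at 134 against 47.2 CPM (log2 1.51). Nfat5, the transcription factor of the hypertonic response, was counted in 4 of 5 lactate+AZD cells, 21 counts in all, against 0, and the anion channel subunit Lrrc8c had 3 against 35 (log2 -3.23). Gclc, of glutathione synthesis, had 11 counts against 0. Each of these kept 2-fold or more in its direction without W14.

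Between techniques, 21.7% of all genes were higher in scMeT-seq cells and 20.6% lower, and 6.9% and 7.25% without any single cell. Of 65 pathway genes with 10 or more counts, 18 were higher and 9 lower, and 7 and 3 without any single cell. Their median log2 ratio was 0.30, beside 0.02 for all genes. Those that held were Pcyt2 (log2 2.39), Selenoi (2.14), Smpd1 (3.10), Aldh7a1 (1.75), Lpcat1 (2.68), Pld2 (1.91) and Impad1 (2.26) on the higher side, and Flvcr1 (-2.83), Napepld (-5.57) and Fmo5 (-2.07) on the lower. In whole cells, lactate against control, 15.2% of all genes were higher and 27.6% lower, and 4.51% and 10.1% without any single cell. Of 63 pathway genes, 9 were higher and 15 lower, and 3 and 7 without any single cell. Their median was -0.32, beside -0.20 for all genes. The higher ones that held were Slc44a2 (log2 1.63), Isyna1 (1.86) and Fmo5 (24 counts against 0). By scMeT-seq Slc44a2 had -1.46, and -0.42 without CTL32, and Fmo5 had 0 counts against 90. The lower ones included Pld1 (log2 -1.47), Pld2 (-2.89) and Pld4 (-3.26), 3 of the 4 phospholipase D genes, beside 27.6% lower over all genes. Pld3, the most counted of the 4, had a log2 ratio of 0.67. By scMeT-seq, lactate against control, Pld1 had 0.97 and none of the 4 was 2-fold lower.

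The pattern of 5 members with a count in at least 12 of the 16 cells of the lactate experiment was set beside 5123 other genes seen as widely, by Spearman's rho of CPM over those 16 cells. Since cells of both treatments and the fibroblast-marked cells are pooled, these values are descriptions. The named genes were picked as the closest of 5123 over only 16 cells, which by itself favours high values. Whether any value exceeds chance was not tested. Closest to Gde1 were Emc3 (0.84) and Adamtsl5 (0.83), and closest to Slc6a6 were Sft2d1 (0.81) and Cmtm3 (0.78). Lpcat1, an acyltransferase of phosphatidylcholine, was among the genes closest to Pcyt1a (0.81). Chkb and Slc44a1 shared their closest gene, Rapgef1, at 0.91 and 0.94, followed by Csgalnact2 (0.88) and Ptpn12 (0.87), and the rho between Chkb and Slc44a1 was 0.78. With total counts per cell, rho was 0.53 for Chkb and 0.36 for Slc44a1. The other 9 pairs among the 5 members had rho of -0.09 to 0.48.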

How the data were processed

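RNA was measured in 35 single cells by SMART-seq2, in 30 of them after cytoplasm was drawn for scMeT-seq. The authors trimmed reads with fastp 0.20.0, aligned them to mm10 with HISAT2 2.1.0 and quantified genes with StringTie. The authors deposited whole-number counts, described as reads per gene. In the AZD3965 table values of 2 outnumber values of 1, for a reason not given in the sources used here. Whether counting used strand is not given in the sources used here, and one plot of the study names 7 control cells where the table holds 8. The members and gene lists were chosen with earlier results of these data known.

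Counts were summed over the cells of each group, divided by the group total to give CPM, and compared as log2 ratios with exact conditional binomial 95% intervals, over genes with 10 or more counts in both groups together. A sum of 0 was set to 3 counts. No test between groups was run over cells. Samples were grouped by their labels, and no cell was left out of the main values. Levels per kb used the longest coding transcript in GENCODE M21 (GRCm38). Named pathway genes came from the 3 most counted of each list and up to 3 in each direction with the largest ratios that stayed 2-fold or more apart without any single cell, and not all are printed. For members counted in at least 12 of the 16 cells of the lactate experiment, the 2 most similar genes by Spearman's rho were named, except 1 that is not reported here. Alternatives were TMM (edgeR 4.0.16), DESeq2 1.42.0 size factors, filters of 0 and 100 counts, means of per-cell CPM, all 5 whole cells, and leaving out single cells or cells with fibroblast markers. Ratios within cells named T, W or F were added after the data had been seen. Scripts used Python 3.11.15, numpy 2.4.6, pandas 2.3.3, scipy 1.17.1, matplotlib 3.10.9 and R 4.3.3, and intervals were checked on simulated data. The metabolomes were not analysed here.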

Additional observations from a re-analysis of the deposited data

Results flagged for a closer look

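Of 43 pairs of a member and a group of 4 to 10 cells, 11 had 1 cell set apart from the rest of its group by more than Dixon's limit, which chance passes in about 1 of 20 groups of normally distributed values. That rate does not hold for counts with many zeros, so the number of such pairs is a description only. In the lactate experiment these were Chka in CTL27 (137 CPM, next 29.8), Slc6a6 in CTL28 (1425 CPM, next 846), Gde1 in Lactic33 (309 CPM, next 126) and Cdo1 in Lactic31 (45.0 CPM, next 0). In the AZD3965 experiment they were Gdpd3 in W5 (7.49 CPM from 1 count), Chka in T13 (22.8 CPM from 4 counts), Chkb in F18 (110 CPM, next 22.5), Gdpd1 in T10 (56.7 CPM), Csad in W14 (70.7 CPM, next 14.2) and Cdo1 in F9 (111 CPM). In the technique comparison it was Cdo1 in Lactic13 (169 CPM from 108 counts, next 0). For 6 of these pairs, all other cells of the group were at 0, where any count passes the limit.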

How the results depend on the processing

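No paired analysis was possible because the results come from no test and the numbers shared by CTL and Lactic cells only name cells. The first letters of the AZD3965 cell names occur in both arms with no stated meaning. Chosen after the data had been seen, ratios within a letter turned Cdo1 to 1.02 (F cells) and brought Gdpd1 to -0.80 (T cells). The value of Cdo1 is a bound from 10 counts against 0. Direction also turned for Gde1 (0.68, W cells), Pcyt1a (-0.63, T cells) and Slc6a6 (-0.46, F cells). With a filter of 100 counts, the members 2-fold or more apart numbered 1 (from 2) higher with lactate, 0 (from 4) lower with AZD3965 and 0 (from 2) lower in whole lactate cells, since fewer genes were read. The other pathway genes then numbered 3 (from 7) lower with lactate, 3 and 2 (from 11 and 11) higher and lower with AZD3965, 9 and 3 (from 18 and 9) higher and lower between techniques, and 6 (from 15) lower in whole lactate cells. Against all 5 whole cells, 1 member was lower (from 0) and 11 pathway genes higher (from 18). With TMM, DESeq2 size factors or means of per-cell CPM, 1 member, Pcyt1a, was higher in whole lactate cells (from 0; log2 ratio 1.03 to 1.09). Leaving out single cells, members higher numbered 1 to 2 with lactate, 0 to 1 with AZD3965, 1 to 4 between techniques and 0 to 1 in whole cells, and members lower 0 to 1 between techniques and 1 to 3 in whole cells. Also chosen after the data had been seen, adding Gm44502 to Chkb turned its log2 ratio with AZD3965 to 0.11, and thinning within the lactate table gave median numbers of members seen of 6.36 in control and 7.00 in lactate cells. Of the log2 ratios of single members, 182 under other settings and 273 without single cells stayed within the counting interval of the value given. Under other settings 20 lay outside it and 2 reversed direction, and without single cells 51 lay outside it. With a limit of 5 counts, 6 members instead of 8 were detected in 18 or more cells. Leaving out cells with fibroblast markers did not apply to the technique table, which held none above the limit. With AZD3965, sums of at most 40 counts for Csad, Cdo1 and Chkb limit what can be shown.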
